A study of Mus musculus with 6 samples.

Results

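Transcripts of cyclin B, of its kinase partner Cdk1 and of the enzymes that switch this kinase on and off were examined in mouse oocytes with and without a Brwd1 mutation. The members were 10 genes chosen by name, namely the B-type cyclins Ccnb1, Ccnb2 and Ccnb3, the kinase Cdk1, the phosphatases Cdc25a, Cdc25b and Cdc25c, and the inhibitory kinases Wee1, Wee2 and Pkmyt1. Each was read from its brightest probe set among those annotated with a single gene symbol, by the mean over all 6 arrays. Of the 10 members, 9 had such a probe set, out of 19938 genes in all, and each of the 9 had exactly 1. No probe set was annotated to Ccnb1, so its transcript was not analysed here.

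Oocytes at the germinal vesicle stage, fully grown and arrested before the first meiotic division, came from wildtype mice and from homozygous Brwd1 mutants, all on a mixed B6/C3H background. The females of both groups were aged from 2 to 6 months and had received 5 IU of equine chorionic gonadotropin, which stimulates follicles, 44 h before collection. Each group had 3 samples of 100 oocytes, and each sample was hybridised to its own array. The labels name neither the mutant allele nor how many females gave each pool, so the p-values speak only for the variation among these pools, part or all of which may be technical.

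Cyclin B binds Cdk1, and the active pair drives the breakdown of the germinal vesicle and entry into meiotic metaphase. During arrest the kinase is held inactive by inhibitory phosphates, which Wee2, a Wee kinase of oocytes, and the membrane-bound kinase Pkmyt1 add, and which Cdc25 phosphatases remove, with Cdc25b the form required for meiotic resumption in the mouse. The anaphase-promoting complex limits the pair by marking cyclin B for destruction.

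The promoters of Ccnb1, Ccnb2, Cdk1 and Wee2 are shown because Ccnb1, Ccnb2 and Cdk1, unlike Ccnb3, hold repeated CCAAT boxes, the sequence bound by the factor NF-Y, a feature that was not used to choose the members, and because Wee2, transcribed mainly in oocytes, stands beside them as a contrast. Each is the 250 bases before the annotated start of the gene in RefSeq, build GRCm38.p6, written 5′ to 3′ on the strand of the gene. Capitals mark CCAAT or its reverse complement ATTGG, and TTTGAA or its reverse complement TTCAAA, the letters of a cell cycle homology region. The windows are chr13:100786487-100786736 on the minus strand, chr9:70421555-70421804 on the minus strand, chr10:69352913-69353162 on the minus strand and chr6:40442613-40442862 on the plus strand.
Ccnb1: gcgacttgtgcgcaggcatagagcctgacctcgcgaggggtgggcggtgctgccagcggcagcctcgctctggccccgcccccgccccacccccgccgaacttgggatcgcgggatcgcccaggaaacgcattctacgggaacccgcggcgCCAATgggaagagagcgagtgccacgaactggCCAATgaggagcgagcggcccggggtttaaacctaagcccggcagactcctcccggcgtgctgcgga
Ccnb2: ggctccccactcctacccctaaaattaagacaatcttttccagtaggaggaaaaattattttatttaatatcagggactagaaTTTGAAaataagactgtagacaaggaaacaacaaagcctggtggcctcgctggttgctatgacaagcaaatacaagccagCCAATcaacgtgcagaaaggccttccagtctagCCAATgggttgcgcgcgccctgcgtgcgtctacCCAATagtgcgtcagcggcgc
Cdk1: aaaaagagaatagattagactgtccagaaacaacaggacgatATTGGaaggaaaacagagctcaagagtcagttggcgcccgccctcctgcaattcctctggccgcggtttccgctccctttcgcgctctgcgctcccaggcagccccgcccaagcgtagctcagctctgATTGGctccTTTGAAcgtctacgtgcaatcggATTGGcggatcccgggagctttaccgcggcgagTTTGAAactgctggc
Wee2: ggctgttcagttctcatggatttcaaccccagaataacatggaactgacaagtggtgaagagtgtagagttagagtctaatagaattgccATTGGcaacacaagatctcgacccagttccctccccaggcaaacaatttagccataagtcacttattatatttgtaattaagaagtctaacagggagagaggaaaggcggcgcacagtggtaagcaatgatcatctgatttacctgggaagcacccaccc

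The Ccnb2 window held 3 CCAAT boxes, which began 87, 54 and 21 bases before the start and so lay 33 bases apart. Its TTTGAA began 167 bases before the start, upstream of all 3 boxes. In Ccnb1 the boxes, 2 in number, began 99 and 67 bases before the start, 32 bases apart. The Cdk1 window held 3, all read as ATTGG, of which the nearer ones began 80 and 48 bases before the start, again 32 apart, and it held TTTGAA 71 and 15 bases before the start. Wee2 held a single ATTGG, 160 bases before the start. Windows of Wee1, Pkmyt1 and Cdc25c were not examined. Of the 7 members whose windows were, 6 held CCAAT on either strand and 4 held it at least 2 times. Cdc25a was the other one of these 4, with boxes 131 and 81 bases before the start. Cdc25b held 1 and Ccnb3 had 0 in its window. For comparison, 33.8% of all 32851 promoter windows of the same length held CCAAT and 10.1% held it at least 2 times, and TTTGAA was in 16% of them and in 2 of the 7 members. These matches describe letters in a window and not factor binding in these oocytes.

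The libraries carried the marks of their labels. Brwd1 itself stood between 8.91 and 9.08 on the log2 scale in the wildtype and between 4.41 and 4.56 in the mutant samples, a log2 difference of -4.50 (SE 0.071, n = 3 per group; limma, Benjamini-Hochberg adjusted p = 2.2e-06). All 12 listed oocyte markers, among them Zp3, Gdf9 and Ooep, lay above a background guide of 4.48, the 95th percentile of 1212 probe sets of olfactory and vomeronasal receptors, with a median at the 99.8th percentile of wildtype levels. Their summed level ran from 15.02 to 15.06 in the wildtype and from 15.07 to 15.09 in the mutant samples. For 4 of the 12 the groups did not overlap with the mutant higher, and for 1 with it lower, beside 10.1% and 9.66% of all probe sets. Of the markers of other cells, 6 of 12 for granulosa and cumulus cells, 6 of 9 for theca and stroma and 3 of 9 for blood, immune and endothelial cells lay at or under the guide in both groups. Above it in both groups lay 6, 3 and 4 of them. The brightest of these were Nr5a2 of the first list, at the 88.4th percentile of wildtype levels, and Pecam1 of the last, at the 76.8th. All sums were taken on unlogged values and then logged, so the brightest genes, such as Nr5a2 and Pecam1, weigh most in them. The summed level of the last list ran from 8.59 to 8.77 in the wildtype and from 8.84 to 9.11 in the mutant samples. Of its 9 measured genes 8 were higher and 1 lower, with a median difference of 0.097. The macrophage gene C1qb, named like the other markers above after the values were seen, differed most, by 0.90 (limma, adjusted p = 0.162). Cd68, another macrophage gene, was the lower one, at -0.070. The theca and stroma sum ran from 7.68 to 7.71 and from 7.76 to 7.82, and that of granulosa and cumulus cells, from 9.42 to 9.71 and from 9.58 to 9.76, overlapped. The upper quartile of all probe sets ran from 7.10 to 7.12 in the wildtype and from 7.04 to 7.09 in the mutant arrays, an offset comparable to several differences of the members. The part of these offsets in the values given next was not tested.

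In wildtype oocytes all 9 measured members lay above the background guide, and they lay between the 67.1st and the 98.9th percentile of the genes on the array. Wee2 was the brightest, at 10.91 ± 0.017 (SD, n = 3) on the log2 scale, which put its probe set at rank 216 of 19938 genes, at the 98.9th percentile. Next came Ccnb2 at the 95.5th percentile, Cdk1 at the 94.1st and Cdc25a at the 90.5th. Pkmyt1 was at the 81.5th, Wee1 at the 75.4th, Cdc25b at the 73.4th, Ccnb3 at the 72.1st and Cdc25c, the dimmest, at the 67.1st. Each probe set has its own affinity, so a percentile places a signal among all signals on the array and does not measure how many transcripts of one gene there are for each transcript of another.

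**Figure D1:**
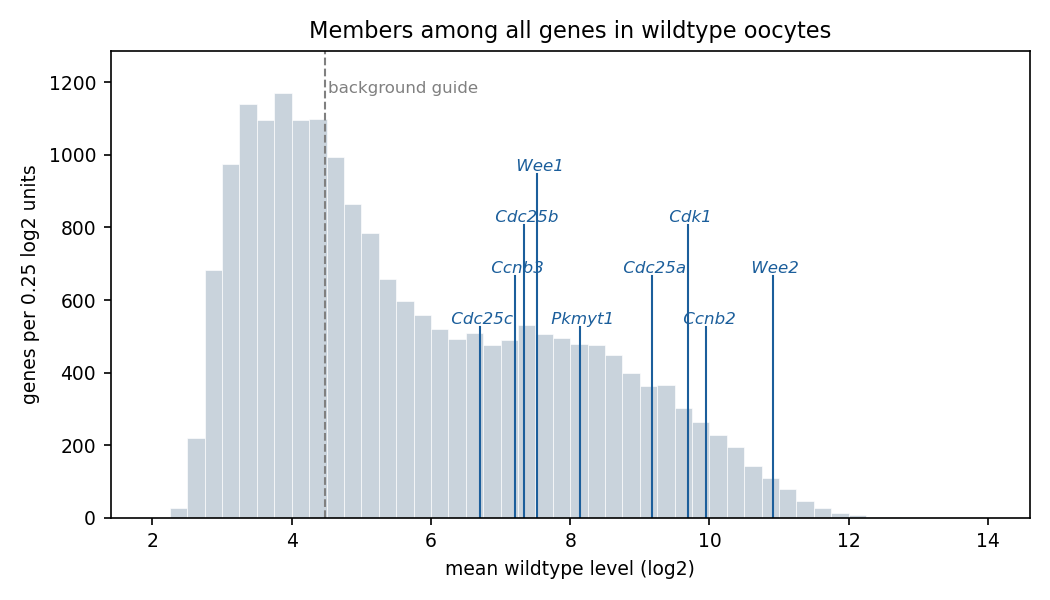
Histogram of the mean wildtype level (log2, x axis) of 19938 genes, as genes per bin of 0.25 log2 units (y axis), with a vertical line, whose height carries no value, at each of the 9 measured members and a dashed line at the background guide of 4.48. Wee2 lies in the far right tail at 10.91 and Cdc25c, the dimmest member, at 6.70.

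These places were stable between wildtype arrays for the bright members and less so for the dim ones. Across the 3 wildtype arrays Cdk1 stayed between the 94.03rd and 94.05th percentiles and Wee2 between the 98.88th and 98.94th. Ccnb3 ranged from the 69.5th to the 74.9th, which covers the places of Cdc25b, at 72.6 to 74.7, so their order is not set. Wee1, at 74.4 to 76.5, also overlapped Cdc25b, while Cdc25c, at 66.1 to 67.8, stayed under all of them.

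None of the 9 measured members passed the test between mutant and wildtype (limma across 23410 probe sets, threshold of 0.05 on the Benjamini-Hochberg adjusted p), where 0.137% of the probe sets did. The smallest adjusted p among the members was 0.256. At an unadjusted p under 0.05 limma gave 1 member, Ccnb2, which was lower, against 14.7% of all probe sets and 7.4% in that direction. The median difference of the members was -0.027 on the log2 scale, beside 0.013 over all 19938 genes, with 5 members lower and 4 higher. The lower share among all genes was 45.5%. After median centring of the arrays 7 members were lower and 2 higher, with 63.5% of all genes lower, and after cyclic loess 4 were lower and 5 higher, with 51.0% of all genes lower.

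The intervals of the differences limit what could have gone unseen. For all 9 members the 95% confidence interval of the limma fit lay within 1.5-fold in either direction, as it did for 89.9% of all probe sets. These intervals are not adjusted for the number of members, and they concern signal relative to the rest of the array. In pooled oocytes a change in some of them and a smaller change in all cannot be told apart.

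**Figure D2:**
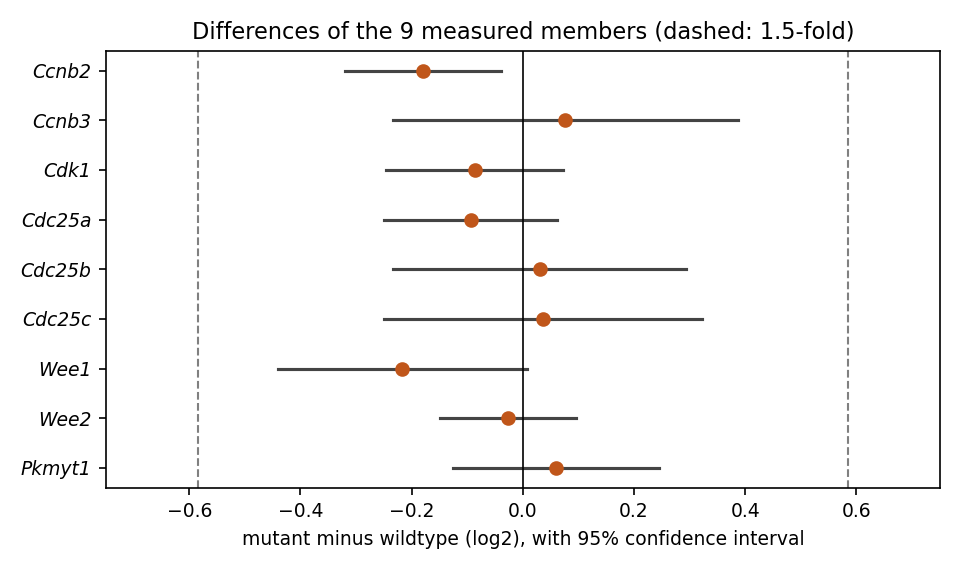
Mutant minus wildtype difference (log2, x axis) of each of the 9 measured members, as a point with its 95% confidence interval from limma. All intervals lie inside the dashed lines at 1.5-fold, the interval of Ccnb2, from -0.32 to -0.039, leaves out 0, and the points of Wee2, Cdc25b and Cdc25c change sign under another scaling of the arrays.

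Among the cyclins, Ccnb2, which can stand in for cyclin B1 as a partner of Cdk1 in oocytes, was at 10, 9.91 and 9.96 in wildtype 1, 2 and 3 and at 9.75, 9.84 and 9.74 in mutant 1, 2 and 3. All mutant samples lay under all wildtype samples. The log2 difference was -0.18 (SE 0.059, 95% confidence interval -0.32 to -0.039; limma, unadjusted p = 0.0193, adjusted p = 0.256), so the measured level in the wildtype was 1.13 times that in the mutant, with an interval from 1.03 to 1.25. Ccnb3, a B-type cyclin that oocytes need for the onset of anaphase of the first division, was at 7.20, 6.95 and 7.49 in the wildtype and at 7.34, 7.26 and 7.27 in the mutant samples. The wildtype samples alone spanned 0.54 and enclosed all mutant samples. The difference was 0.077 (SE 0.13; limma, adjusted p = 0.817), and without wildtype 2 it was -0.055.

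Cdk1, the catalytic subunit, was at 9.69, 9.69 and 9.70 in the wildtype and at 9.67, 9.49 and 9.66 in the mutant samples. The groups did not overlap, but only by 0.02, and mutant 2 was the one clearly lower sample. The difference was -0.087 (SE 0.067, 95% confidence interval -0.25 to 0.073; limma, adjusted p = 0.591), and without mutant 2 it was -0.028.

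The Cdc25 phosphatases, which strip the inhibitory phosphates from Cdk1, had overlapping groups in all 3 cases. Cdc25a was at 9.15, 9.14 and 9.23 in the wildtype and at 9.10, 9.15 and 8.99 in the mutant samples, with a shared value of 9.15, and differed by -0.093 (SE 0.066; limma, adjusted p = 0.552), or by -0.048 without mutant 3. Cdc25b, the form that restarts meiosis, was at 7.29, 7.27 and 7.47 in the wildtype and at 7.32, 7.59 and 7.21 in the mutant samples. Its highest and lowest samples were both mutant, and the difference was 0.030 (SE 0.11, 95% confidence interval -0.23 to 0.29; limma, adjusted p = 0.922). Cdc25c, a form expressed in oocytes but dispensable in mice, was at 6.77, 6.72 and 6.61 in the wildtype and at 6.83, 6.47 and 6.91 in the mutant samples. Here too the mutant samples lay on both sides of the wildtype, and the difference was 0.037 (SE 0.12; limma, adjusted p = 0.910). After median centring, which lowered every gene alike and put the median of all genes at -0.043, Cdc25b and Cdc25c were at -0.027 and -0.020.

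**Figure D3:**
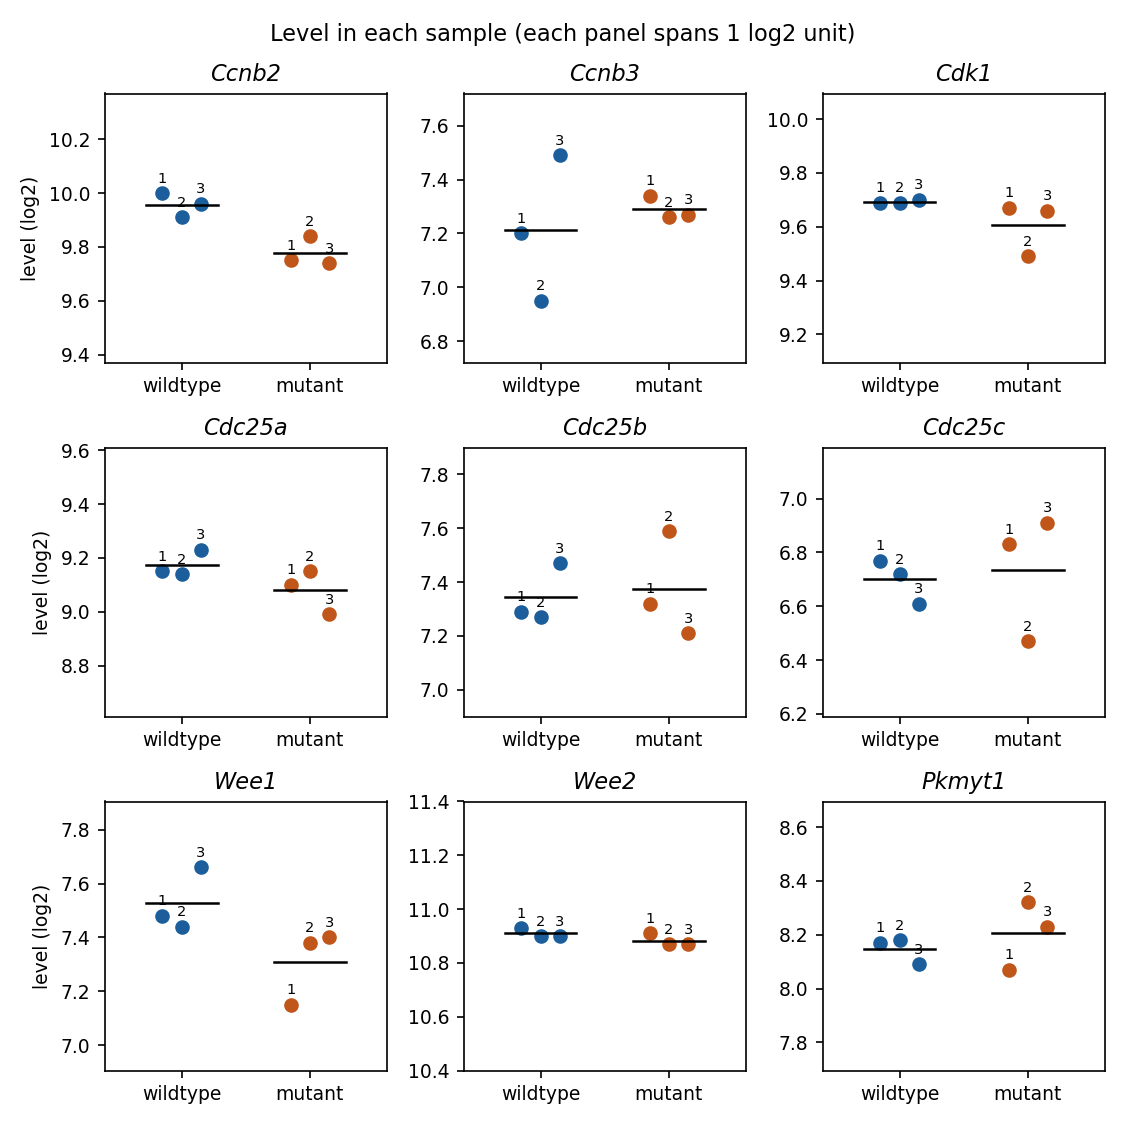
Level (log2, y axis) of each measured member in every sample, with the replicate number at each point, wildtype in blue, mutant in orange and group means as black lines. Each panel spans 1 log2 unit, so distances can be compared between panels: Wee2 samples lie within 0.06 of each other, while those of Ccnb3 in the wildtype span 0.54.

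Of the inhibitory kinases, Wee1, the general nuclear form, was at 7.48, 7.44 and 7.66 in the wildtype and at 7.15, 7.38 and 7.40 in the mutant samples. The groups did not overlap, with a gap of 0.04 between wildtype 2 and mutant 3. The difference, -0.22 (SE 0.095), was the largest of any member in size, but its 95% confidence interval, -0.44 to 0.0078, included 0 (limma, unadjusted p = 0.0564, adjusted p = 0.355). Without mutant 1, its lowest sample, the difference was -0.14. Wee2, whose depletion lets meiosis restart early, was at 10.93, 10.90 and 10.90 in the wildtype and at 10.91, 10.87 and 10.87 in the mutant samples. The groups overlapped, and the difference of -0.027 (SE 0.052, 95% confidence interval -0.15 to 0.096; limma, adjusted p = 0.842), which was 0.0028 after cyclic loess, had the narrowest interval of the members, up to 1.11-fold lower and 1.07-fold higher. Pkmyt1, the kinase of internal membranes, was at 8.17, 8.18 and 8.09 in the wildtype and at 8.07, 8.32 and 8.23 in the mutant samples, with mutant 1 under and mutant 2 and mutant 3 over all wildtype samples. It differed by 0.060 (SE 0.078; limma, adjusted p = 0.758), and by 0.0033 without mutant 2 and 0.13 without mutant 1.

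In all, the groups did not overlap for 3 of 9 members, Ccnb2, Cdk1 and Wee1, beside 19.7% of all probe sets. In each of the 3 the mutant was lower, as in 9.66% of all probe sets, while 10.1% did not overlap with the mutant higher. The differences of the 3 ran from -0.22 to -0.087.

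The mutant samples of most members were spread more widely than the wildtype samples, for some of them only slightly. The SD was larger in the mutant than in the wildtype group for 8 of 9 members, Ccnb3 being the exception, beside 49.9% of all genes. For Cdk1 the SD was 0.0058 in the wildtype and 0.10 in the mutant samples, and for Cdc25c 0.082 and 0.23. The SDs were close for Wee2, at 0.017 and 0.023, Ccnb2, at 0.045 and 0.055, and Wee1, at 0.12 and 0.14. The Cdk1 wildtype values spanned only 0.01, a single step in the last digit given, so that SD is set by rounding. Mutant 2 was the sample farthest from the rest of its group in 4 members, Ccnb2, Cdk1, Cdc25b and Cdc25c, and mutant 1 in another 4, Ccnb3, Wee1, Wee2 and Pkmyt1. Over all genes these shares were 35.6% and 35.0%. In the wildtype group, wildtype 3 was the farthest sample in 7 of 9 members, beside 37.6% of all genes. With 3 samples per group an SD is itself imprecise, and this comparison of spreads carries no test.

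The other genes of the pathway were followed in 5 lists of 60 genes, of which 57 were measured, and 0 of them passed over all genes. At an unadjusted p under 0.05 limma gave 5 lower and 0 higher, beside 7.4% and 7.3% of all probe sets. The groups did not overlap for 8 with the mutant lower and 0 with it higher, beside 9.66% and 10.1%. Of the list of 9 with cyclin A, the Cks proteins that bind Cdk1, and the kinase that activates CDKs, 8 were measured, with a median difference of -0.0050, 4 lower and 4 higher. Ccnf, an F-box cyclin, was at -0.26 (SE 0.12; limma, adjusted p = 0.373), Ccnh, the cyclin of the activating kinase, at -0.10, and Ccna1, the cyclin A of the male germ line, at 0.073 from a level under the background guide. The median of that list was 0.019 after cyclic loess and -0.062 after median centring, beside -0.0030 and -0.043 for all genes.

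The 8 cyclins and CDKs of G1 and S phase had a median difference of 0.038, with 6 higher and 2 lower, and a median of -0.018 after median centring, again beside -0.043 for all genes. Ccne2 and Ccne1, the E cyclins that start DNA replication, were at 0.11 and -0.12, and Ccnd3, a D cyclin, at 0.12 (limma, adjusted p from 0.516 to 0.598). Of 7 measured Cdk inhibitor genes, 4 were lower and 3 higher, with a median of -0.057 that was 0.022 without wildtype 2 and 0.0050 without mutant 3. Cdkn3, which encodes a phosphatase that acts on Cdk2 and Cdk1, was at -0.30 (SE 0.11; limma, unadjusted p = 0.0282, adjusted p = 0.281), with 5.61 in both wildtype 1 and mutant 1. Cdkn2c and Cdkn2b, inhibitors of the CDKs of G1, were at 0.22 and 0.16 (limma, adjusted p = 0.366 and 0.552).

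Of 17 measured kinases, phosphatases and adaptor proteins that act on Cdc25 or Wee1, 10 were higher, 6 lower and 1 equal, with a median of 0.043, and of -0.013 after median centring, where the median of all genes was -0.043. Bora, the activator of the Aurora A and Polo-like kinases, was at 9.32, 9.51 and 9.24 in the wildtype and at 9.21, 9.20 and 9.19 in the mutant samples, so that its groups did not overlap. Its difference was -0.16 (SE 0.079; limma, adjusted p = 0.414). Ywhaz, an adaptor that holds phosphorylated Cdc25 in the cytoplasm, was at -0.090 (limma, adjusted p = 0.485), and Cdc14a, a phosphatase, at 0.32 (SE 0.18; limma, adjusted p = 0.445). For 3 of the 17, Bora and Ywhaz among them, the groups did not overlap with the mutant lower, beside 9.66% of all probe sets. For 0 they did not overlap with it higher, beside 10.1%.

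The 17 genes of cyclin B destruction had a median difference of -0.083, with 12 lower and 5 higher. The median stayed lower in each scaling tried, at -0.066 after a new quantile normalization, -0.052 after cyclic loess and -0.14 after median centring, where the median of all genes was -0.043, and lay between -0.098 and -0.057 without any 1 array. Of them 4 reached an unadjusted limma p under 0.05, all lower, beside 7.4% of all probe sets, and for 5 the groups did not overlap, all lower, beside 9.66%. Ube2c, the ubiquitin-conjugating enzyme of the anaphase-promoting complex, was at 9.91, 9.95 and 10 in the wildtype and at 9.75, 9.62 and 9.69 in the mutant samples. All mutant samples lay under all wildtype samples, and the difference was -0.27 (SE 0.061; limma, unadjusted p = 0.00346, adjusted p = 0.158). Anapc10, the subunit that helps to bind substrates, was at -0.25 (SE 0.069; limma, adjusted p = 0.209), and Cdc26, a small subunit, at -0.43 (SE 0.15; limma, adjusted p = 0.272) from a wildtype level that itself spread from 6.07 to 6.60.

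**Figure D4:**
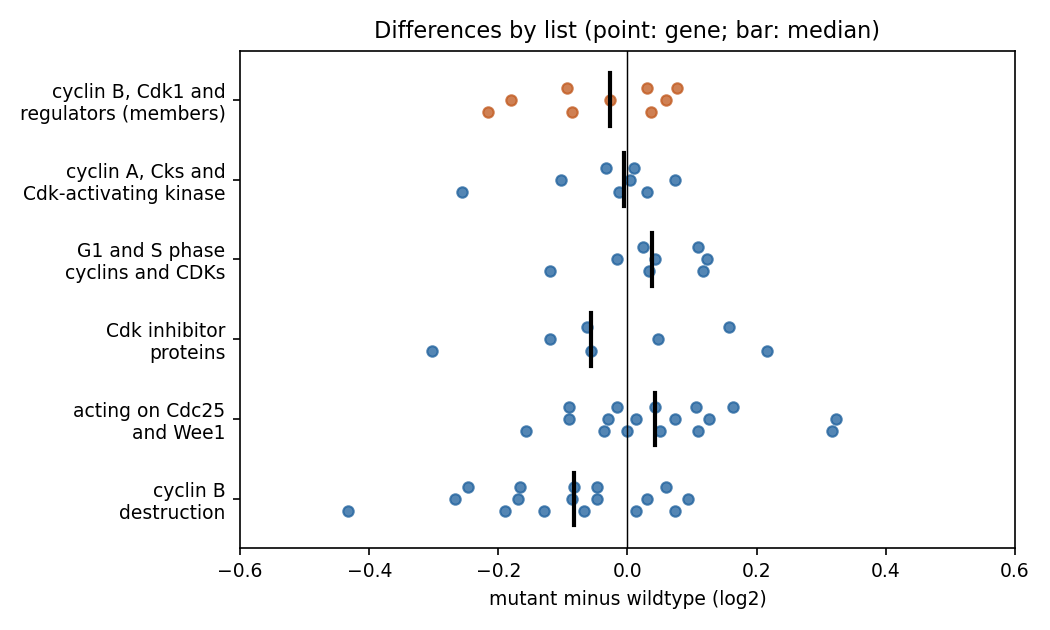
Mutant minus wildtype difference (log2, x axis) of each measured gene, a point, in the member list (orange) and in the 5 pathway lists (blue), with list medians as black bars and points shifted up or down only to keep them apart. Medians lie between -0.083 and 0.043, no gene passed the test, and the medians of the cyclin A, G1 and S phase, and Cdc25 and Wee1 lists change sign under another scaling, as does that of the members after cyclic loess.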

How the data were processed

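Each of the 6 samples was read on 1 Affymetrix mouse Gene ST array in a single colour. The deposited values are log2 values, made by the authors with Affymetrix Expression Console 1.1 and RMA, per the submitters' processing notes; RMA corrects background, equalises the arrays' distributions and summarises probes, so a change in total RNA per oocyte cannot be seen. The table names no scale, and log2 was read from the range of its values. Per the labels' protocols, 1 ng of total RNA was amplified and labelled with NuGEN kits. Array medians ran from 4.69 to 4.79 and upper quartiles from 7.04 to 7.12. Precision is limited by 3 arrays per group.

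Of 35556 probe sets, 21789 had 1 symbol in the array annotation, 1621 several and 12146 none. Differences were fitted on the 23410 with a symbol, with lmFit and eBayes of limma 3.58.1 (R 4.3.3), two-sided, on all 6 arrays without covariates or filter, with Benjamini-Hochberg adjustment over all of them and a threshold of 0.05. Confidence intervals are at 95%. The genes named are Brwd1, all members and up to 3 genes per pathway list with the smallest p. The cell type markers named were chosen outside this rule. Alternatives were leaving out each array, a block for the replicate number, other normalizations, level filters, array weights, a trended and robust eBayes, testing all probe sets, the mean of a gene's probe sets and other thresholds. Medians of lists under them were added after seeing the data. The fit was tested on simulated data. At the threshold used it recovered 50.4% of changes of 0.5 log2 units and 89.6% of changes of 1, with 5.3% of calls false. Changes smaller than 0.5 were not simulated. The members and lists were chosen with earlier results of these data known. Promoter sequences are from RefSeq, build GRCm38.p6; the array annotation's own build is not stated in those sources.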

Additional observations from a re-analysis of the deposited data

How the results depend on the processing

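No member passed over all genes in any of the 15 alternative fits, and no pathway gene did. An unadjusted threshold of 0.05 gave 1 member and an adjusted threshold of 0.1 gave 0. Over 16 alternatives, several of which leave a difference as it is by construction, Ccnb2 ran from -0.24 to -0.15, Wee1 from -0.27 to -0.14, Cdk1 from -0.14 to -0.028, Cdc25a from -0.15 to -0.048 and Pkmyt1 from 0.0033 to 0.13, with smallest limma adjusted p-values of 0.161 for Ccnb2 and 0.222 for Wee1, both after median centring. Wee2 turned to 0.0028 after cyclic loess, and Cdc25b and Cdc25c to -0.027 and -0.020 after median centring, which put the median of all genes at -0.043. Leaving out 1 array gave -0.055 to 0.21 for Ccnb3, -0.078 to 0.11 for Cdc25b and -0.050 to 0.17 for Cdc25c. The 32 probe sets called over the table became 76 with trend and robust settings, 1 with all probe sets of the table and 1 to 18 without 1 array, fewest without wildtype 1, wildtype 2 or mutant 1; the cause was not tested. Brwd1 was called throughout. With the replicate number as a block 1 probe set was called. Wildtype and mutant samples that share a number did not deviate together more than those with unlike numbers. The correlations were -0.0015, -0.031 and 0.036 for numbers 1, 2 and 3, and from -0.048 to 0.057 for unlike numbers. With so few arrays these values cannot tell whether same-numbered samples were handled together. With 3 arrays per group, the limma intervals given above bound what could be seen.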
